A study of Cyprinus carpio with 2 samples.

Results

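The unigenes described here encode the machinery of the cytoplasmic microtubule, comprising kinesin motors, cytoplasmic dynein and dynactin, the tubulins, the stathmins, and proteins of the centrosome and of augmin. A unigene is an assembled transcript sequence, and several unigenes can carry the same gene name. Members were taken by gene symbol, from the first letters kif, dync, dctn, tuba, tubb, tubg, stmn, cep or haus. This gave 247 of the 22634 unigenes, under 83 of 9494 symbols, and 1 of the 247 came only from the authors' list of testis genes. The naming rule used no expression value, but that 1 unigene, of stmn1b, became a member because its list holds genes high in testis, so its direction was fixed by how it was found. In the same way 147 unigenes of the whole table came only from the testis list.

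Juvenile carp (Cyprinus carpio), aged 110 to 130 days after hatching, provided immature gonads for RNA sequencing, as 1 library of testis and 1 library of ovary. The labels give the same developmental stage and age range for both. They state no strain, genotype, treatment or number of fish per library. Total RNA was prepared with TRI reagent and the libraries with a NEB Next Ultra RNA kit. With 1 library per tissue there is no replicate check, no p-value was computed, and every difference is between these libraries.

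Microtubules are polymers of alpha- and beta-tubulin that grow from gamma-tubulin at the centrosome, from the poles of the spindle, or from the sides of existing microtubules through augmin. Most kinesins carry cargo or push microtubules toward the plus end, whereas cytoplasmic dynein with its activator dynactin moves toward the minus end. In gonads these proteins serve the mitotic divisions of germ cells, meiotic spindles, transport of RNA and organelles in growing oocytes, and the shaping of spermatids.

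The deposited values were whole multiples of 1.73 units in the testis library and of 2.31 units in the ovary library, within 0.01 of a step for all 247 members in both. A step was taken as 1 read, which was not tested. On this reading the testis library held 1926860 reads and the ovary library 4311799 reads over all unigenes. No unigene in the values used had fewer than 1 read in either library. Sums, ratios and shares below therefore leave out any unigene read in 1 library only. As deposited, the values of the median unigene were 1.78-fold lower in testis than in ovary. All folds and log2 ratios below are testis over ovary relative to that median, and log2 ratios were taken after adding 1 unit. A summed ratio between 0.596 and 1.78 changes side if the values are used as deposited or if the libraries are scaled to equal total reads. Of the 83 symbols, 34 lay inside that band, 34 below it and 15 above it. The intervals given are exact Clopper-Pearson 95% intervals and cover counting error only. In the deposited headers the columns carry no tissue name. They were assigned from the titles of the authors' gene lists, with all 171 testis-list and all 127 ovary-list unigenes higher in the column so assigned. An error in those titles would exchange every direction below. All 5 testis somatic marker unigenes (2303 reads in testis and 32 reads in ovary) are themselves in the testis list and give no check of the labels. Oocyte marker unigenes outside both lists, 24 of 25, summed to 13164 reads in testis and 222034 reads in ovary. Reads under oocyte marker names were thus also counted in the testis library, and their source was not tested. In bulk tissue, fewer cells of a type and less RNA per cell cannot be told apart.

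The numbers in the unigene names divided the ratios into separate levels. For the 11904 unigenes numbered below 23700 the median log2 ratio was -0.86, and for the 10730 from there on it was 1.14. Symbols with unigenes in both ranges leaned further toward testis in the upper range in 4303 of 4490 cases, or 95.8%, with a median difference of 1.67. Among the member symbols it was 38 of 42, or 90.5%, with a median difference of 1.32. The same gene name therefore gave different ratios depending on the unigene. How the numbers were assigned is not given in the sources used here, and the part of the number range in the results was not tested. Where such values are given below, they are relative to the median of the same range. For counts of symbols on either side by this measure, the share of all symbols is not given here. Such counts are therefore not read as results about the members.

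**Figure D1:**
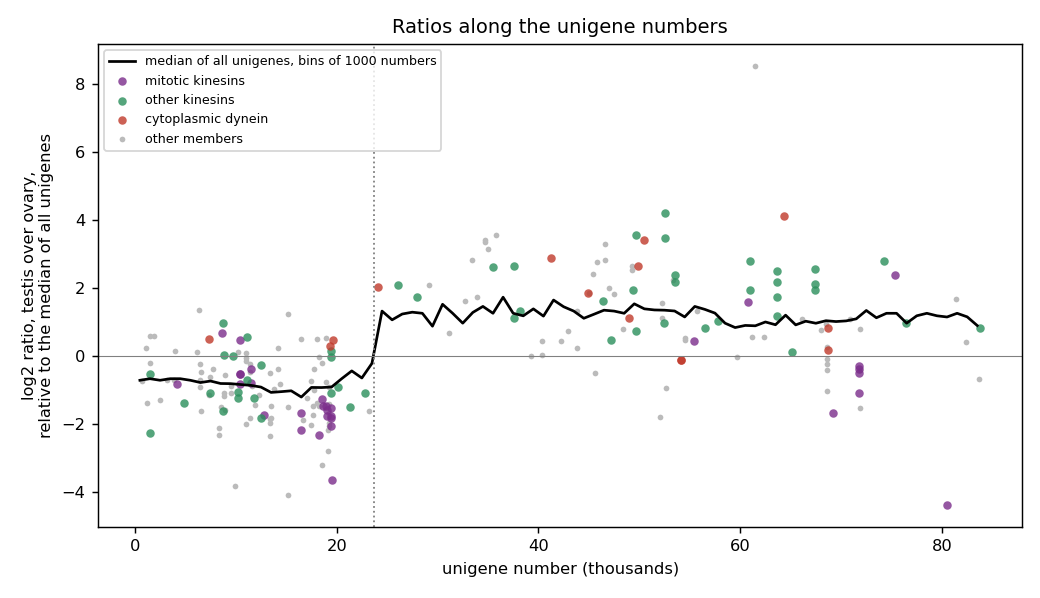
Log2 ratio of each member unigene (testis over ovary, relative to the median of all unigenes) against the number in its name (axis in units of 1000), with the median of all unigenes per 1000 numbers as a line and the boundary at 23700 dotted. The line lies below 0 before the boundary and above 0 after it, where most mitotic kinesin unigenes lie below the line and the other kinesins are spread around it.

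As a set, the members differed little from the other unigenes. A minimum of 5 units in the higher library was met by 230 members, and 35 of them (15.2%) were at least 4-fold higher in testis, against 13.8% of all unigenes. Another 17 (7.39%) were at least 4-fold higher in ovary, against 11.2% of all unigenes. With the values as deposited the split was 12 higher in testis and 58 higher in ovary, and with equal total reads it was 53 and 6. The shares of all unigenes under these scalings are not given here, so these splits are not read as results about the members. The median log2 ratio was -0.11 for the members and -0.02 for all unigenes, and the shares were near the background. By counting interval, 58 members (23.5%) lay toward testis, against 27.5% of all unigenes, and 73 (29.6%) toward ovary, against 30.1%. The members took 1.05% of the reads in testis and 1.30% of the reads in ovary.

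All 35 members called higher in testis had numbers in the upper range, as did 99.2% of the 2984 unigenes called that way in the whole table. These 35 came from 14 symbols, and their median was 14 reads in testis and 2 reads in ovary. In 21 of the 35 the ovary library held 3 reads or fewer. Those called higher in ovary, also from 14 symbols, had a median of 5 reads in testis and 58 reads in ovary, and 16 of the 17 were in the lower range. Relative to their own range, 13 members passed the 4-fold rule toward testis and 11 toward ovary, and the shares of all unigenes by that measure are not given here.

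The families within the set differed from each other. Mitotic kinesins, beta-tubulins and stathmins had the lowest median log2 ratios, at -1.26, -0.98 and -0.93. The other kinesins and cytoplasmic dynein had the highest, both at 0.97. Taken within the number range, these medians were -0.71, -0.76 and -0.57 for the low families, and 0.54 for the other kinesins and 1.02 for dynein. Their directions were also kept as deposited and with equal total reads, but summed by symbol the stathmin median was 3.89. The stathmin median over unigenes is the value of 1 stmn1a unigene of 3. The beta-tubulin median is the midpoint of the 2 tubb2 unigenes, which together held 10 reads in testis and 27 reads in ovary. Summed by symbol and relative to the number range, 2 of 4 beta-tubulin symbols were below and 2 above, with a median ratio of 1.17. Alpha-tubulin, gamma-tubulin complex and augmin medians were below 0 as well, at -0.71, -0.74 and -0.47, but with equal total reads they stood at 0.04, 0.01 and 0.28. Within the number range they were -1.30, -0.20 and -0.35, which made alpha-tubulin the lowest family there. Alpha-tubulin was also the lowest by summed reads, at a ratio of 0.232, where stathmins were at 0.706. Dynactin (0.53, but -0.30 as deposited and -0.28 within the range) and the cep proteins (-0.04, but 0.71 with equal total reads and 0.15 within the range) lay between.

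**Figure D2:**
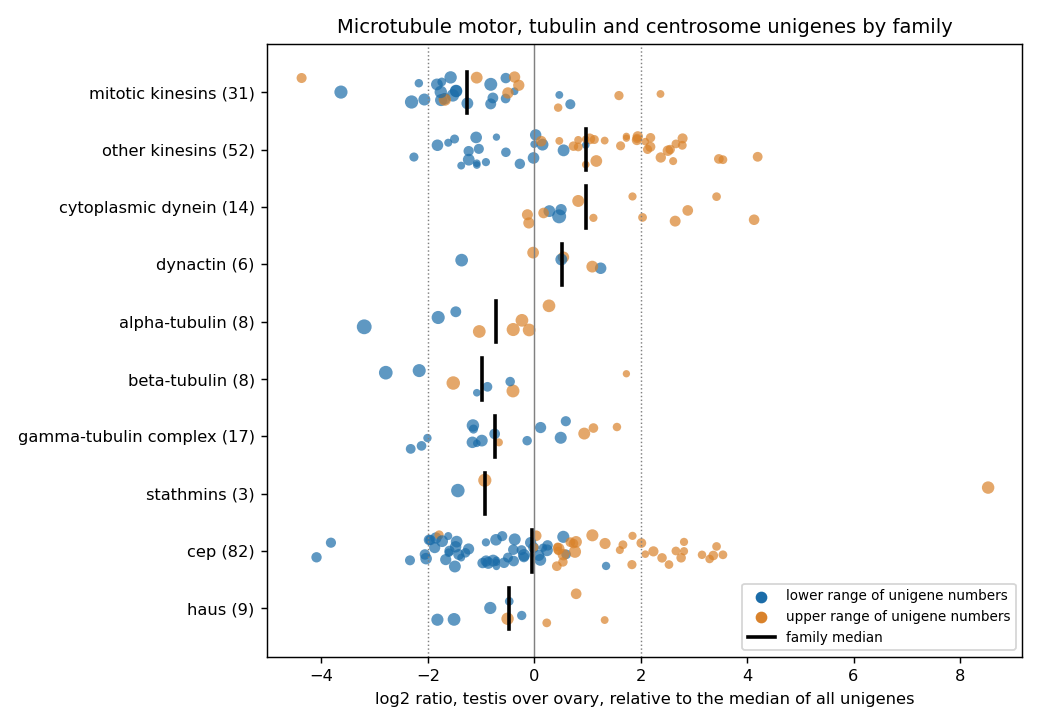
Log2 ratio of each member unigene that met the minimum of 5 units (testis over ovary, relative to the median of all unigenes), by family, with the number of unigenes in parentheses and larger points for more reads. Points are coloured by range of unigene numbers, black bars are family medians, dotted lines mark a 4-fold difference, and the stathmin at 8.53 is stmn1b; with equal total reads alpha-tubulin, the gamma-tubulin complex, cep and haus medians lie above 0, and as deposited the dynactin median lies below 0.

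Kinesins of the mitotic spindle and of cytokinesis were lower in testis nearly throughout. Summed over their unigenes, 11 of 12 symbols had a ratio below 1 with an interval that excluded it, and kif20bb was above. Of all symbols in the table, 43.7% had such an interval toward ovary and 30.4% toward testis. Relative to their own number range, 9 of the 12 were below and 3 (kif14, kif20a and kif20bb) above. Under both other scalings 10 symbols stayed below and kif20bb stayed above. The 12 symbols together had 2185 reads in testis and 9237 reads in ovary, which was 3.17-fold lower in testis (3.03 to 3.32).

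kif11, the plus-end motor that pushes spindle poles apart, had 97 reads in testis and 1621 reads in ovary. It was the lowest of the member symbols relative to ovary, 12.5-fold lower in testis (10.2 to 15.5). Nearly all its reads came from a unigene of the lower range, with 95 reads in testis and 1576 reads in ovary. Of its 2 unigenes in the upper range, one had 1 read in testis and 43 in ovary, the other 1 read in testis and 2 in ovary. kif15, a kinesin that can stand in for kif11 in human cells, had 140 reads in testis and 539 reads in ovary, or 2.89-fold lower in testis (2.39 to 3.50). It was lower by less than kif11.

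The chromokinesins, which bind chromosome arms, were both lower in testis. kif22 had 253 reads in testis and 1667 reads in ovary, 4.94-fold lower in testis (4.33 to 5.66). kif4 had 76 reads in testis and 243 reads in ovary, 2.40-fold lower in testis (1.85 to 3.15). Kinesins that act on microtubule ends gave ratios of similar size. kif2c, a microtubule depolymerase of the centromere, had 217 reads in testis and 866 reads in ovary, 2.99-fold lower in testis (2.58 to 3.49). kif18a, which damps chromosome movements at the spindle equator, had 122 reads in testis and 438 reads in ovary, 2.69-fold lower in testis (2.20 to 3.32). kifc1 is a minus-end motor that focuses spindle poles and in mammals is also abundant in spermatids. It had 241 reads in testis and 1019 reads in ovary, 3.17-fold lower in testis (2.75 to 3.66).

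The kinesins of the central spindle and midbody were also lower in testis by summed reads. kif23, the motor of centralspindlin, had 454 reads in testis and 1461 reads in ovary, 2.41-fold lower in testis (2.17 to 2.69). All 7 of its unigenes lay below the median of all unigenes, and relative to the number range its ratio was 0.353, against 1.11 for kif20a and 1.17 for kif14. kif20a, which carries the chromosomal passenger complex to the central spindle, had 388 reads in testis and 910 reads in ovary, 1.76-fold lower in testis (1.56 to 1.99). kif14, a kinesin of cytokinesis, had 73 reads in testis and 162 reads in ovary, 1.66-fold lower in testis (1.26 to 2.23) and inside the band that the scaling decides. As shares of the mitotic kinesin reads, which do not depend on the scaling, kif11 made up 4.44% in testis and 17.5% in ovary, whereas kif20a made up 17.8% in testis and 9.85% in ovary.

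The names kif20ba and kif20bb, paralogues of a cytokinesis kinesin, differed in direction. kif20ba had 86 reads in testis and 285 reads in ovary, 2.49-fold lower in testis (1.95 to 3.20). kif20bb had 38 reads in testis and 26 reads in ovary, 1.95-fold higher in testis (1.15 to 3.34). Of the reads of the pair, kif20bb took 30.6% in testis and 8.36% in ovary. How the authors' counting split reads between near-identical copies is not given in the sources used here, so values of paralogue pairs are uncertain.

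Transport kinesins leaned the other way by symbol, but as a group their unigenes in the lower number range did not. Of the 12 symbols, 7 had an interval above 1 (against 30.4% of all symbols), 2 below it (against 43.7%) and 3 across it. Relative to their own number range 11 of 12 were above and kif1ab below. They took 1551 reads in testis and 1731 reads in ovary, a ratio of 1.19 (1.11 to 1.28), inside the band that the scaling decides. Of their unigenes with 5 units or more, 17 of 21 in the lower number range were below the median of all unigenes. In the upper range all 31 were above it. Relative to the median of the same range, the medians were -0.18 in the lower and 0.79 in the upper. Mitotic kinesins were 58.5% of all kinesin reads in testis and 84.2% in ovary. As deposited and with equal totals, 5 symbols stayed above and kif1ab stayed below, and the remaining 6 changed side under one of these scalings.

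The kinesin-3 motors, which haul vesicles and endosomes, held the highest ratios among them relative to the median of all unigenes. kif1b had 117 reads in testis and 30 reads in ovary, 5.20-fold higher in testis (3.46 to 8.05). kif16ba, an early endosome motor, had 50 reads in testis and 17 reads in ovary, 3.92-fold higher in testis (2.22 to 7.25). kif1aa had 36 reads in testis and 13 reads in ovary, 3.69-fold higher in testis (1.91 to 7.59). These are shallow counts, and 24 members in all rested on 1 ovary read and 24 on 1 testis read. Most unigenes of kif1b, kif16ba and kif1aa have numbers in the upper range. Relative to the number range their ratios were 2.61, 1.94 and 1.66, and kif5ba was the highest of the transport kinesins at 2.83.

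The kif1a and kif13b pairs were not alike within themselves. kif1ab had 71 reads in testis and 223 reads in ovary, 2.36-fold lower in testis (1.80 to 3.12), unlike kif1aa. kif13ba, of a kinesin that moves endosomal and membrane cargo, had 83 reads in testis and 45 reads in ovary, 2.46-fold higher in testis (1.69 to 3.62). kif13bb, with 10 unigenes the most of any member symbol, had 282 reads in testis and 380 reads in ovary, 1.01-fold lower in testis (0.864 to 1.18). Its unigenes ran from -1.82 to 2.55 on the log2 scale, with 4 in the lower range below the median and 6 in the upper range above it.

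kif1c, another kinesin-3 motor, varied even more among its 9 unigenes, from -2.26 to 4.20. The highest had 33 reads in testis and 2 reads in ovary, a ratio of 22 (5.63 to 189). The lowest had 2 reads in testis and 16 reads in ovary. Summed, kif1c had 87 reads in testis and 52 reads in ovary, 2.23-fold higher in testis (1.56 to 3.21).

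The heavy chain of conventional kinesin and the kinesin-2 motor were close to the median of all unigenes. kif5ba had 175 reads in testis and 161 reads in ovary, 1.45-fold higher in testis (1.16 to 1.81). kif3b, a subunit of the kinesin-2 that builds cilia, had 263 reads in testis and 216 reads in ovary, 1.62-fold higher in testis (1.35 to 1.95). Both lie inside the band that the scaling decides. Relative to the number range the ratios were 2.83 for kif5ba and 1.20 for kif3b. The kinesin-2 adaptor genes kifap3a and kifap3b were thinly covered, with 17 and 11 reads in testis and 24 and 11 reads in ovary, and no difference was detectable at this depth. kifc3, a minus-end motor of cell junctions, had 359 reads in testis and 559 reads in ovary, 1.17-fold lower in testis (1.02 to 1.34).

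**Figure D3:**
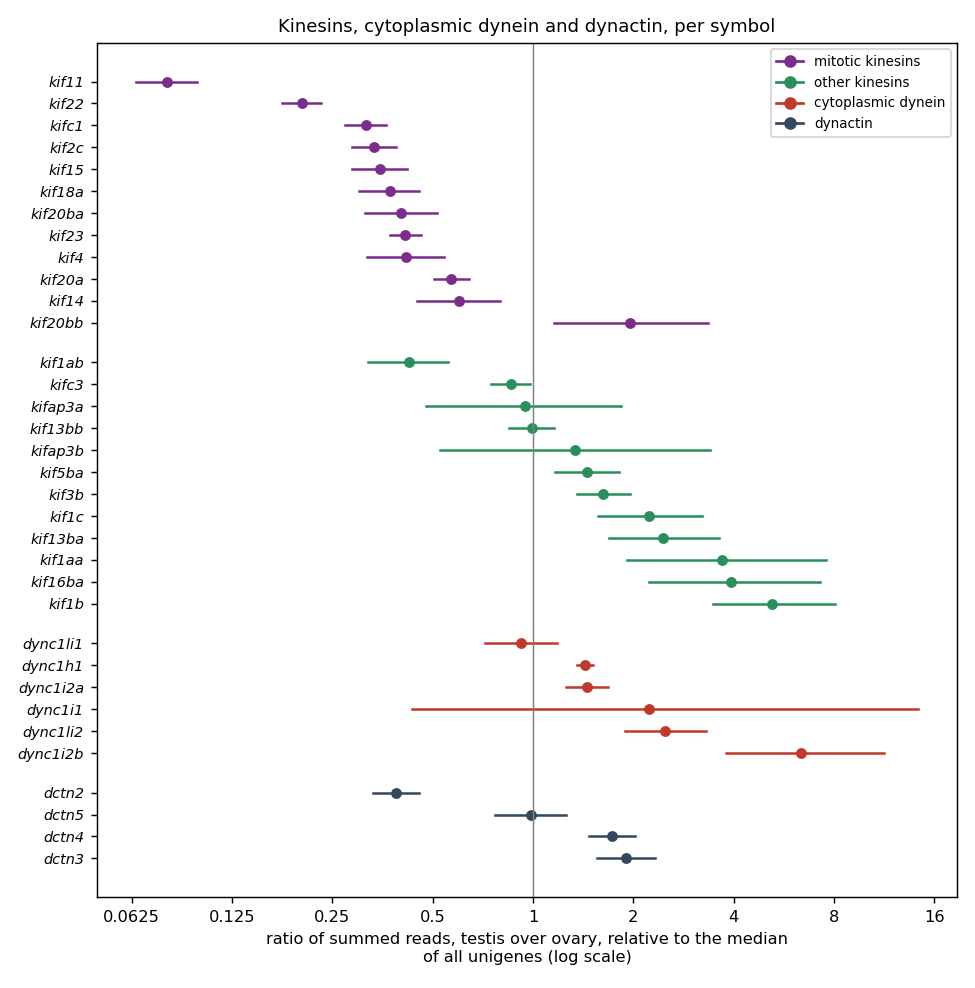
Ratio of summed reads per symbol, testis over ovary relative to the median of all unigenes, on a log axis, for kinesins, cytoplasmic dynein and dynactin, with bars for the 95% counting interval. From kif11 at the left end, 11 mitotic kinesins lie left of 1 and kif20bb lies right of it; ratios between 0.596 and 1.78, among them kif14, dync1h1 and dctn4, change side under another scaling.

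Cytoplasmic dynein had the highest summed ratio of the motor families, with 3468 reads in testis and 3159 reads in ovary, a ratio of 1.46 (1.39 to 1.54). That summed ratio lies inside the band that the scaling decides. Of the 6 symbols, 3 lay above the band and none below it, but dync1i1, 1 of the 3, had an interval across 1 (0.432 to 14.3). The symbols dync1h1, dync1i2a and dync1li1 lay inside the band. By symbol, 4 of 6 had an interval above 1 (against 30.4% of all symbols), none below it (against 43.7%) and 2 across it. Relative to their own number range 3 were above and 2 below, dync1li1 at 0.415 and dync1i2a at 0.992, and dync1i1 was at the median. Within the number ranges the median was 1.33 in the lower and 0.71 in the upper, each relative to the median of its own range. The direction of the family median was kept as deposited, at 0.14, and with equal totals, at 1.72.

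dync1h1, the heavy chain that holds the motor domain, had 2712 reads in testis and 2526 reads in ovary, 1.43-fold higher in testis (1.36 to 1.51). It supplied 78.2% of the dynein reads in testis and 80.0% in ovary. Its main unigene, with 2604 reads in testis and 2504 reads in ovary, has a number in the lower range, where it stood above the range median by 1.33 on the log2 scale. As deposited this unigene was at -0.36, so the scaling decides its side.

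The intermediate chains, which bind dynactin, and the light intermediate chains, which bind cargo adaptors, contributed the rest. dync1i2b had 86 reads in testis and 18 reads in ovary, 6.37-fold higher in testis (3.80 to 11.3). Its paralogue dync1i2a had 400 reads in testis and 368 reads in ovary, 1.45-fold higher in testis (1.25 to 1.67). Of the reads of the pair, dync1i2b took 17.7% in testis and 4.66% in ovary, so the balance of the names differed whatever the scaling.

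dync1li2 had 153 reads in testis and 82 reads in ovary, 2.49-fold higher in testis (1.89 to 3.29). One of its unigenes had 71 reads in testis and 5 reads in ovary, a ratio of 18.9 (7.74 to 60.1), and the other had 82 reads in testis and 77 reads in ovary. dync1li1 had 112 reads in testis and 162 reads in ovary, with an interval across 1. dync1i1, which in mammals is mainly neuronal, had 5 reads in testis and 3 reads in ovary, too few to show a difference.

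Dynactin subunits did not share a direction. dctn2, or dynamitin, of the shoulder that joins dynein to the filament, had 206 reads in testis and 707 reads in ovary, 2.57-fold lower in testis (2.20 to 3.02). dctn3, of the same shoulder, had 243 reads in testis and 171 reads in ovary, 1.89-fold higher in testis (1.55 to 2.32). dctn4 and dctn5 belong to the pointed-end complex that caps the filament. dctn4 had 360 reads in testis and 278 reads in ovary, 1.73-fold higher in testis (1.47 to 2.03), which changes side as deposited. dctn5 had 119 reads in testis and 161 reads in ovary, with an interval across 1. Of the dynactin reads, dctn2 made up 22.2% in testis and 53.7% in ovary, but its unigene lies in the lower number range. Relative to the number range the ratios were 0.758 for dctn2, 1.33 for dctn3 and 1.39 for dctn4. By that measure dctn5 was the lowest of these subunits, at 0.443.

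Other parts of these motors fall outside the naming rule. Among 15 symbols of light chains, adaptors and regulators, 9 were above the median ratio and 6 below, where 42.8% of all symbols in the table were above. The lowest ratio among those named was that of dynll2a, a light chain shared with other complexes, with 434 reads in testis and 5099 reads in ovary, 8.81-fold lower in testis (7.99 to 9.74). dynll1, the related light chain, had 190 reads in testis and 866 reads in ovary, 3.42-fold lower in testis (2.92 to 4.02). klc1b, a kinesin light chain, had 229 reads in testis and 139 reads in ovary, 2.20-fold higher in testis (1.77 to 2.73).

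The tubulin subunits were lower in testis by summed reads. The 5 alpha-tubulin symbols had 3687 reads in testis and 21231 reads in ovary, 4.32-fold lower in testis (4.17 to 4.47). Each of the 5 had an interval below 1, against 43.7% of all symbols. Relative to their own number range all 5 were also below. tuba8l4 and tuba8l2 lie inside the band that the scaling decides, and the other 3 kept their side under both scalings.

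tuba4l carried most of that difference. It had 1354 reads in testis and 16501 reads in ovary, 9.14-fold lower in testis (8.65 to 9.67), and it was a single unigene. It made up 36.7% of alpha-tubulin reads in testis and 77.7% in ovary. Without it, the alpha-tubulins were 1.52-fold lower in testis (1.45 to 1.60), which lies inside the band that the scaling decides.

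The remaining alpha-tubulins were tuba1a, tuba1b, tuba8l4 and tuba8l2. tuba1a, of a form that in mammals is most abundant in young neurons, had 285 reads in testis and 1327 reads in ovary, 3.49-fold lower in testis (3.07 to 3.98). tuba1b had 22 reads in testis and 83 reads in ovary, 2.83-fold lower in testis (1.75 to 4.76). tuba8l4 had 1651 reads in testis and 2734 reads in ovary, 1.24-fold lower in testis (1.17 to 1.32). In share it went the other way from tuba4l, at 44.8% of alpha-tubulin reads in testis and 12.9% in ovary. However, the tuba4l unigene has a number in the lower range and all 4 of tuba8l4 in the upper range. Relative to the number range the ratios were 0.213 for tuba4l and 0.362 for tuba8l4, both below 1. The others were 0.384 for tuba8l2, 0.558 for tuba1a and 0.689 for tuba1b. The part of the number range in these shares was not tested. tuba8l2 had 375 reads in testis and 586 reads in ovary, 1.17-fold lower in testis (1.03 to 1.34).

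Beta-tubulin reads came almost entirely from tubb4b, a widely expressed form also used in cilia. It had 1525 reads in testis and 7148 reads in ovary, 3.52-fold lower in testis (3.33 to 3.72), and was 98.5% of beta-tubulin reads in testis and 99.3% in ovary. Its 4 unigenes were all below the median, from -2.79 to -0.40 on the log2 scale. The one numbered 19178 had 334 reads in testis and 3077 reads in ovary, or 21.9% of the tubb4b reads in testis and 43.0% in ovary. The balance of tubb4b unigenes therefore also differed, but 19178 lies in the lower number range, which leans toward ovary. Relative to the number range its log2 ratio was -1.93, and that of 71834, in the upper range, was lower at -2.66. The part of the number range in this balance was not tested. tubb2, tubb5 and tubb6 had 10, 9 and 5 reads in testis and 27, 17 and 3 reads in ovary, and no difference was detectable at this depth.

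**Figure D4:**
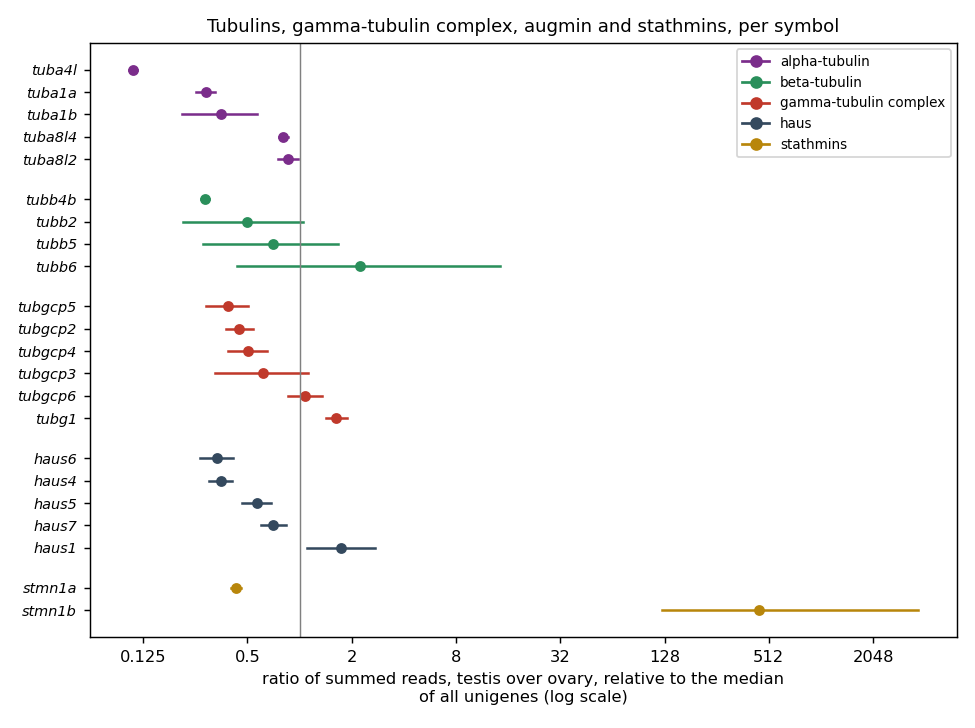
Ratio of summed reads per symbol, testis over ovary relative to the median of all unigenes, on a log axis, for tubulins, the gamma-tubulin complex, stathmins and augmin, with bars for the 95% counting interval. tuba4l lies farthest left at 9.14-fold lower in testis and stmn1b farthest right at 450-fold higher; ratios between 0.596 and 1.78, among them tuba8l4, tubg1 and haus1, change side under another scaling.

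Gamma-tubulin itself and the proteins that assemble it into a nucleating ring gave different values. tubg1, gamma-tubulin, had 421 reads in testis and 344 reads in ovary, 1.63-fold higher in testis (1.41 to 1.89), inside the band that the scaling decides. The 5 ring proteins together were 1.82-fold lower in testis (1.64 to 2.03), but most of their unigenes have numbers in the lower range. Over the whole complex, 2 symbols were above the median ratio and 4 under it (against 56.9% of all symbols). Relative to their own range 3 were on each side. tubg1 took 46.5% of the reads of the complex in testis and 22.6% in ovary.

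Among the ring proteins, tubgcp2 and tubgcp3 form the core, and tubgcp4, tubgcp5 and tubgcp6 extend it to the full ring. tubgcp2 had 170 reads in testis and 504 reads in ovary, 2.22-fold lower in testis (1.87 to 2.66). tubgcp5 had 68 reads in testis and 236 reads in ovary, 2.60-fold lower in testis (1.98 to 3.46), and all 5 of its unigenes were below the median. tubgcp4 had 82 reads in testis and 217 reads in ovary, 1.98-fold lower in testis (1.53 to 2.59). The intervals of tubgcp3 and tubgcp6 included 1, with 17 and 148 reads in testis and 37 and 184 reads in ovary. Relative to the number range the ratios were 0.877 for tubgcp2, 0.700 for tubgcp5 and 0.982 for tubgcp4, and 1.19 for tubgcp3 and 1.67 for tubgcp6, so most of the lower values shrank or turned there.

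Augmin recruits that ring to spindle microtubules, and 4 of its 5 named subunits were lower in testis, against 56.9% of all symbols. haus6, the subunit that binds the gamma-tubulin ring in human cells, had 105 reads in testis and 422 reads in ovary, 3.01-fold lower in testis (2.43 to 3.77). haus4 had 213 reads in testis and 807 reads in ovary, 2.84-fold lower in testis (2.44 to 3.32). haus5 had 151 reads in testis and 357 reads in ovary, 1.77-fold lower in testis (1.46 to 2.16). These 3 kept their side under both scalings, although haus5 came to 0.035 on the log2 scale within its number range. haus7 had 211 reads in testis and 398 reads in ovary, 1.41-fold lower in testis (1.19 to 1.68). haus1 had 48 reads in testis and 37 reads in ovary, 1.73-fold higher in testis (1.10 to 2.73), and both change side under another scaling.

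Stathmins, which bind tubulin dimers and promote microtubule loss, held the widest contrast of any member. stmn1b had 675 reads in testis and 2 reads in ovary, a ratio of 450 (124 to 3723), and it was high in the testis library and almost absent in the ovary library. Its single unigene was found only in the authors' testis list, not in the full expression table. It was the only member in either list, and in the authors' deposited table it had a log2 fold of 8.07 as deposited, with a p-value of 0.008729. No other member had a p-value under 0.05 in the authors' deposited table. The direction of stmn1b was fixed by how it was found, so neither its rank among the members nor its p-value gives further support.

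stmn1a, the paralogue, went the other way. It had 1052 reads in testis and 3261 reads in ovary, 2.32-fold lower in testis (2.17 to 2.49), and each of its 2 unigenes was below the median. Of all stathmin reads, stmn1b was 39.1% in testis and 0.0613% in ovary. In zebrafish stmn1b is expressed mainly in the nervous system, so neural markers were set beside it. Of the neural marker list, 2 symbols were measured, mbpb with 114 reads in testis and 85 in ovary, and maptb with 36 reads in testis and 23 in ovary. Their sum was 150 reads in testis and 108 reads in ovary, a ratio of 1.85, and their part in the stmn1b result was not tested. Of the 9 neural names searched, the others, such as elavl3, snap25 and gap43, matched no unigene in the values used. A missing name does not show that a gene was silent, since the values used hold only unigenes with reads in both libraries.

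The cep proteins, a mixed class of centriole, centrosome and ciliary base proteins, lay on both sides of the median. Of the 27 symbols, 8 had an interval above 1 (against 30.4% of all symbols), 9 below it (against 43.7%) and 10 across it. Relative to their own number range, 13 were below, 13 above and cep89 at the median. Under both other scalings 10 symbols stayed below and 3 stayed above. In all they had 3422 reads in testis and 5458 reads in ovary.

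Those lower in testis included proteins of centriole duplication and of spindle poles. cep152, a scaffold that recruits the centriole kinase plk4, had 168 reads in testis and 485 reads in ovary, 2.17-fold lower in testis (1.81 to 2.60). Its partner cep63 had 143 reads in testis and 185 reads in ovary, with an interval across 1. cep57 and cep57l1 hold centriole pairs together in human cells. cep57 had 25 reads in testis and 124 reads in ovary, 3.72-fold lower in testis (2.41 to 5.97). cep57l1 had 98 reads in testis and 406 reads in ovary, 3.11-fold lower in testis (2.49 to 3.91).

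Similar folds were seen for cep44, cep41 and cep55l. cep44, a protein of centriole-to-centrosome conversion, had 77 reads in testis and 345 reads in ovary, 3.36-fold lower in testis (2.62 to 4.36). All 3 of its unigenes were below the median. cep41, which acts in tubulin glutamylation of cilia, had 41 reads in testis and 204 reads in ovary, 3.73-fold lower in testis (2.66 to 5.36). cep55l is named for cep55, which brings the abscission machinery to the midbody in human cells. It had 112 reads in testis and 369 reads in ovary, 2.47-fold lower in testis (1.99 to 3.08), similar to kif23 and kif20ba above. The cytokinesis kinesins kif20a and kif14 were lower by less, and kif20bb was higher in testis. Relative to the number range the ratios were 0.789 for cep55l, 0.353 for kif23 and 0.767 for kif20ba.

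The next symbols were lower in testis by about the same amount or less. cep83, a protein of the distal appendages that anchor a cilium, had 97 reads in testis and 264 reads in ovary, 2.04-fold lower in testis (1.61 to 2.60). cep112 had 36 reads in testis and 95 reads in ovary, 1.98-fold lower in testis (1.34 to 2.99). cep72, a centriolar satellite protein, had 95 reads in testis and 231 reads in ovary, 1.82-fold lower in testis (1.43 to 2.34). Relative to the number range these differences shrank or turned, to ratios of 0.955 for cep83, 0.985 for cep112 and 1.07 for cep72. Another distal appendage protein, cep89, had 70 reads in testis and 102 reads in ovary, with an interval across 1.

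Those higher in testis both as deposited and with equal total reads included cep85l and cep350. cep85l, a pericentriolar protein needed for migrating neurons in mammals, had 57 reads in testis and 16 reads in ovary, 4.75-fold higher in testis (2.69 to 8.86). cep350, which anchors microtubules at centrioles, had 60 reads in testis and 19 reads in ovary, 4.21-fold higher in testis (2.48 to 7.47). Their ovary counts were low, and nearly all their unigenes have numbers in the upper range.

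Smaller differences were seen for cep170b, cep70 and cep120. cep170b had 600 reads in testis and 608 reads in ovary, 1.32-fold higher in testis (1.17 to 1.48). cep70 had 475 reads in testis and 505 reads in ovary, 1.25-fold higher in testis (1.10 to 1.42). cep120, which promotes centriole elongation, had 140 reads in testis and 108 reads in ovary, 1.73-fold higher in testis (1.34 to 2.24). All 3 lie inside the band that the scaling decides.

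cep290, a gatekeeper of the ciliary transition zone, showed how far unigenes of one name can differ. Summed, it had 68 reads in testis and 62 reads in ovary, 1.46-fold higher in testis (1.02 to 2.10). Its unigene in the lower range had 2 reads in testis and 48 reads in ovary, at -3.82 on the log2 scale. One in the upper range had 26 reads in testis and 3 reads in ovary, at 3.36. Its unigenes spanned 7.37 log2 units, the widest span of any member symbol, against a median span of 1.76 over the 58 symbols with more than 1 unigene. In 29 of those symbols the unigenes lay on both sides of the median.

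**Figure D5:**
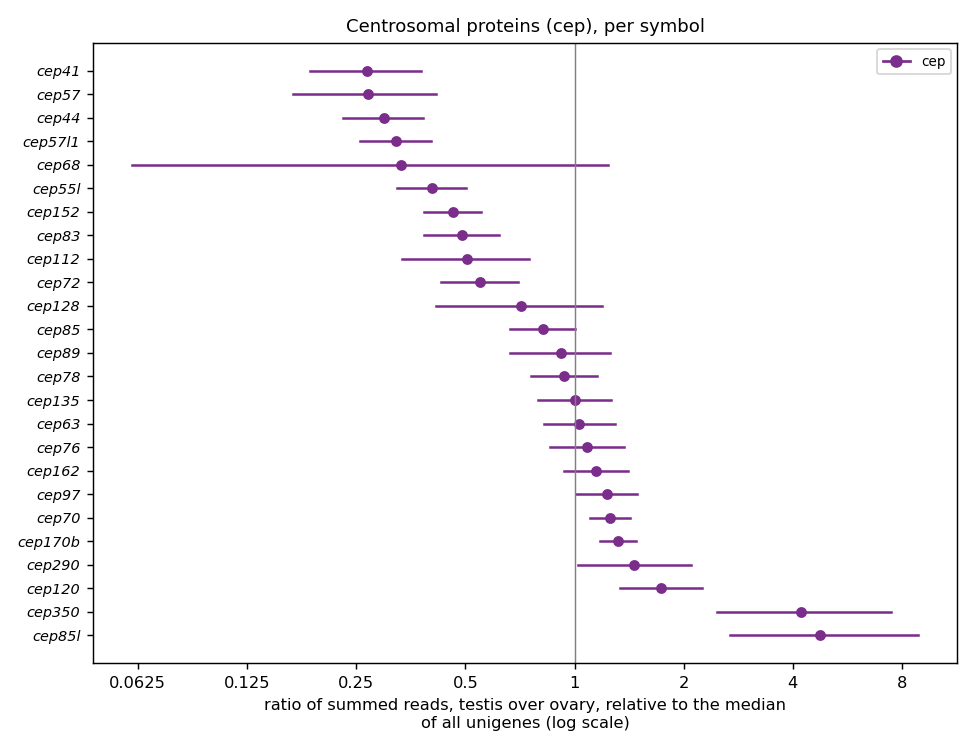
Ratio of summed reads per symbol, testis over ovary relative to the median of all unigenes, on a log axis, for 25 cep symbols with more than 3 reads in a library, with bars for the 95% counting interval. The symbols run on both sides of 1, from cep41 at 3.73-fold lower to cep85l at 4.75-fold higher in testis; ratios between 0.596 and 1.78, which hold all symbols from cep128 to cep120, change side under another scaling.

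Other genes of the same machinery, outside the naming rule, were read alongside. Of 30 further centrosome and centriole symbols, 21 were below the median ratio and 9 above, where 56.9% of all symbols in the table were below. The mitotic kinase aurka had 266 reads in testis and 3940 reads in ovary, 11.1-fold lower in testis (9.81 to 12.6), close to kif11. plk1, another mitotic kinase, had 295 reads in testis and 2727 reads in ovary, 6.93-fold lower in testis (6.15 to 7.84). mzt1, a small subunit of the gamma-tubulin ring, had 112 reads in testis and 1383 reads in ovary, 9.26-fold lower in testis (7.63 to 11.3). A large scaffold was on the other side. pcnt, pericentrin, had 259 reads in testis and 83 reads in ovary, 4.16-fold higher in testis (3.24 to 5.39).

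Kinetochore and spindle checkpoint genes also leaned toward ovary. Of 38 symbols, 35 were below the median ratio, against 56.9% of all symbols. Of the 70 unigenes with 5 units or more, 4 passed the 4-fold rule toward testis and 25 toward ovary. Of all unigenes, 13.8% passed it toward testis and 11.2% toward ovary. The median log2 ratio of the kinetochore and checkpoint unigenes was -1.34. Relative to the median of the same number range it was -1.14 in the lower and -0.92 in the upper. aurkb, the kinase of the chromosomal passenger complex that kif20a transports, had 355 reads in testis and 4175 reads in ovary, 8.82-fold lower in testis (7.91 to 9.86). casc5, the kinetochore scaffold, was an exception with 230 reads in testis and 45 reads in ovary, 6.81-fold higher in testis (4.93 to 9.60).

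Markers of cell division were mixed, with 4 of 6 symbols below the median ratio and 2 above, where 56.9% of all symbols were below. ccnb1, the mitotic cyclin that oocytes also store as maternal RNA, had 772 reads in testis and 12528 reads in ovary, 12.2-fold lower in testis (11.3 to 13.1). mki67, a marker of cycling cells, had 877 reads in testis and 582 reads in ovary, 2.01-fold higher in testis (1.81 to 2.23). top2a had 529 reads in testis and 659 reads in ovary, with an interval across 1. The 6 proliferation symbols summed to 2904 reads in testis and 16748 reads in ovary, where ccnb1 made up most of the sum. The part of cell division and of stored oocyte RNA in the values of the mitotic kinesins was not tested.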

How the data were processed

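The deposited values are a normalised signal per unigene, which the authors gave as 1 column per library. Per the file headers these are base means with a log2 fold and a p-value. The authors' log2 fold and p-value were used only for stmn1b and to count members under 0.05. How reads were aligned and counted, and on which assembly, is not given in the sources used here. Whole reads were recovered by dividing by the step of each column: 22633 of 22634 testis values and 22632 of 22634 ovary values came out whole within 0.01 read. The columns were tied to tissues by the titles of the authors' lists, whose unigenes were added where the expression table lacked them (147, all from the testis list).

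Ratios were log2((testis + 1)/(ovary + 1)) minus the median over all unigenes; a minimum of 5 units in the higher library and a 4-fold rule of size were applied. Symbols were summed over unigenes. No count model was run, since 1 library per tissue leaves no residual degrees of freedom. Python 3.11.15, numpy 2.4.6, pandas 2.3.3, scipy 1.17.1 and matplotlib 3.10.9 were used, and the scripts were tested on simulated data. Of the 83 symbols, 33 matched the RefSeq gene table by name, and no sequence or coordinate was used. The values of 1 cep symbol are not reported here, although counts and sums over the family include it.

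Members, families and pathway lists were chosen with earlier results of these data known. Per family, rules picked up to 4 unigenes with the largest ratio at 10 units or more and the 2 with the most signal. Every member in the authors' lists and every symbol with 3 or more unigenes (by its sum) were also picked. So were up to 3 unigenes of each pathway list. Not everything picked is described in the text. Among those left out are cep97, cep128, cep135 and cep162, and unigenes of tbcd, agtpbp1, ttll11, nin, cenph, bub1ba and birc5a. The other symbols named were chosen for their role or after their values were seen.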

Additional observations from a re-analysis of the deposited data

How the results depend on the processing

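The counts of members past the 4-fold rule toward testis and toward ovary (35 and 17) were 12 and 58 with values as deposited, 53 and 6 with equal total reads, and 13 and 11 relative to the same range of unigene numbers. Summing unigenes by symbol gave 8 and 3, a fold of 2 gave 61 and 69, and a fold of 8 gave 11 and 5. Toward testis alone, a pseudocount of 10 units gave 8 and a floor of 20 units gave 21. The shares of all unigenes under these alternatives are not given here, so the counts show only how far the processing moves them. The median of the members was -0.94 as deposited and 0.64 with equal totals. As deposited, the family medians were -2.08 for mitotic kinesins, 0.14 for dynein, -1.57 for the gamma-tubulin complex, -1.76 for stathmins and -0.87 for cep. With equal totals they were -0.51 for mitotic kinesins, 1.28 for dynactin and 0.71 for cep. Relative to the same range, chosen for symbols after seeing the data, 1 symbol of the other kinesins was below the median against 4. Of 49 named unigenes 13 changed sign under some alternative. As deposited these were kifc3 at -0.67, cep70 at -0.062, dctn3 at -0.28, dctn4 at -0.32, dync1h1 at -0.36, dync1i2a at 0, haus1 at -0.039, kif5ba at -0.28 and tubg1 at -0.33. With a pseudocount of 10 units kifc3 was at -0.095. With equal totals haus7 was at 0.25 and the other cep70 unigene at 0.56. In the same range that unigene was at 0.67, the first cep70 was at -0.38 and dctn3 at -0.59. By that measure dync1i2a was at -0.31, haus1 at -0.35 and haus5 at 0.035. The other dctn4 unigene was at -0.050 there, whereas the dctn4 unigene named above was at 1.37. The cause of these shifts was not tested beyond the change of scale itself. No paired analysis was possible because each tissue has 1 library, and no library could be left out. Members had a median of 21 reads in each library and 58 had under 10, so small unigenes cannot show modest differences.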

Other observations

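Among microtubule-binding and severing proteins, 16 of 32 symbols were above the median ratio and 16 below, where 56.9% of all symbols in the table were below. Of the 32, map1aa and map1ab, which stabilise microtubules in neurons, had nearly all their reads in testis, as stmn1b did. map1aa had 266 reads in testis and 2 reads in ovary, a ratio of 177 (48.6 to 1472). map1ab had 207 reads in testis and 1 read in ovary, a ratio of 276 (49.0 to 10953). Like stmn1b, both came only from the authors' testis list, so their direction was fixed by how they were found. The 16 symbols above the median ratio include them. clip1a, a plus-end tracking protein, had 730 reads in testis and 149 reads in ovary, 6.53-fold higher in testis (5.47 to 7.84). Proteins of the spindle were found on both sides. ckap2l, a mitotic spindle protein, had 121 reads in testis and 26 reads in ovary, 6.21-fold higher in testis (4.04 to 9.88). tpx2, an activator of aurka, had 343 reads in testis and 1458 reads in ovary, 3.19-fold lower in testis (2.83 to 3.60). prc1a, which bundles central spindle microtubules, had 65 reads in testis and 326 reads in ovary, 3.76-fold lower in testis (2.87 to 4.99).

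Among tubulin folding and modifying enzymes, 13 of 20 symbols were above the median ratio and 7 below, where 42.8% of all symbols in the table were above. hdac6, a tubulin deacetylase, had 316 reads in testis and 213 reads in ovary, 1.98-fold higher in testis (1.66 to 2.36). svbp, the partner of tubulin detyrosinases, had 121 reads in testis and 457 reads in ovary, 2.83-fold lower in testis (2.31 to 3.49).

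Markers of other cell types were summed as well. Germ cell genes had 7202 reads in testis and 7605 reads in ovary. Of their 8 symbols 6 were above the median ratio, against 42.8% of all symbols. nanos3, at 55 reads in testis and 2489 in ovary, and tdrd7b, at 150 in testis and 364 in ovary, were below it. Among those above, nanos1 had only 7 reads in testis and 4 in ovary. The list took every numbered tdrd name, tdrd3 among them. Erythrocyte genes had 673 reads in testis and 980 reads in ovary, with 2 of 3 symbols above the median ratio and tfr1a below it. tfr1a had 133 reads in testis and 609 in ovary, and tfr1b had 532 in testis and 366 in ovary. Skeletal muscle genes had 51 reads in testis and 994 reads in ovary, with 3 of 10 symbols above the median ratio. Most of these ovary reads were from tnni2b.1, with 13 reads in testis and 758 in ovary. Its unigene is in the authors' ovary list. Leukocyte genes had 566 reads in testis and 2989 reads in ovary, a sum carried by il1b with 95 reads in testis and 2308 in ovary and mpx with 11 in testis and 611 in ovary. The remaining 3 of the 5 leukocyte symbols were higher in testis. coro1a had 175 reads in testis and 49 in ovary, and ptprc had 63 in testis and 20 in ovary. lyz had 222 reads in testis and 1 in ovary, but its unigene came only from the authors' testis list. The direction of lyz was therefore fixed by how it was found. The part of these cell types in the values of the microtubule genes was not tested.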
